A study of Mus musculus with 6 samples.

Results

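The HSP70 and HSP110 chaperones were followed by 10 genes, Hspa1a, Hspa1b, Hspa8, Hsph1, Hspa4, Hspa4l, Hspa9, Hspa13, Hspa14 and the co-chaperone gene Bag3, out of 47729 genes in the count tables. Rows were picked by symbol in the GRCm38 annotation, 9 by gene ID and Hspa14 by its coordinates. All 10 passed the filter on low counts that left 14625 genes for the test. The set was assembled with the KO against WT difference of these genes already known, so their values are given as a description. Calls of the fit across all genes are counted for them only beside the share of all genes called, and are no evidence about the set. The RNA came from cells isolated from mouse lung as endothelial cells (ECs). It was sequenced as polyA-selected, strand-specific single-end reads, with 3 libraries from leene-KO mice and 3 from wild-type (WT) littermates. All mice were C57BL6 males aged 14 weeks, and all had received Angiotensin II (AngII) at 1000 ng/kg/min from an osmotic pump for 2 weeks, so no group without AngII was compared. The KO is a global deletion of the region syntenic to human LEENE/LINC00520, which holds 3 lncRNA genes, Gm41148, Gm49302 and Gm35360, and it is not restricted to ECs. The labels describe CD31-enriched cells of 3 mice per group, pooled, while the study's methods describe CD144 magnetic beads. Whether 1 library is 1 mouse or a pool could not be settled, so the SDs below measure the spread between libraries, which may in part be technical. The SEs come from the fit and draw on the spread of other genes as well.

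HSP70 proteins hold unfolded stretches of other proteins and release them in cycles driven by ATP. J-domain proteins bring clients and start ATP hydrolysis, and nucleotide exchange factors, including the HSP110 proteins and the BAG family, open the cycle again. Hspa1a and Hspa1b encode the stress-inducible cytosolic HSP70 and are textbook targets of heat shock factor 1 (HSF1), whereas Hspa8 encodes the constitutive HSC70, the form most cells rely on at rest. In ECs, HSP70 and its partner HSP90 are known for the handling of signalling proteins, nitric oxide synthase among them.

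The start regions of 3 genes are shown because they hold the HSF1-type motif and belong to the members with the lowest KO values relative to WT. The unit, which reads the same on both strands when paired, was searched as GAANNTTC or TTCNNGAA in windows from 250 bases before to 50 bases after the annotated start (RefSeq, GRCm38.p6), and 7 of the 10 members had a window. The sequences below run 5′ to 3′ on the minus strand, up to the annotated start and in Hsph1 to a point shortly before it, with the paired unit in capitals. They come from chr17:34959239-34959488 for Hspa1b, chr17:34972157-34972406 for Hspa1a and chr5:149636347-149636586 for Hsph1.
Hspa1b: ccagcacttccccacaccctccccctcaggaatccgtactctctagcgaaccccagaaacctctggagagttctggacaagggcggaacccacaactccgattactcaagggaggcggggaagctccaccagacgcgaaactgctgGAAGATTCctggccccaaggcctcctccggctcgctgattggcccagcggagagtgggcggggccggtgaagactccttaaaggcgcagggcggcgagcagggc
Hspa1a: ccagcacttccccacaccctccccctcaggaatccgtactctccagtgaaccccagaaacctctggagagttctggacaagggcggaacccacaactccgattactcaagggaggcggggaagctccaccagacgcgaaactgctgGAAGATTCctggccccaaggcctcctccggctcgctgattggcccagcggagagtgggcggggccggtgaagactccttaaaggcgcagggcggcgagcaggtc
Hsph1: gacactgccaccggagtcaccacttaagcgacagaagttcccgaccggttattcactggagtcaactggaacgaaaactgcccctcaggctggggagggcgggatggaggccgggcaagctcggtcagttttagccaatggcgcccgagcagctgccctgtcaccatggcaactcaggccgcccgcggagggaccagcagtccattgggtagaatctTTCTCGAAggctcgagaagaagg
The stretches of Hspa1b and Hspa1a differed at 3 of 250 bases, and both carried GAAGATTC with its first base 104 bases before the start. Hsph1 has 2 RefSeq starts, and TTCTCGAA began 33 bases before the upstream one, the one used here, and 54 bases before the other. In the annotation used for counting, Hsph1 begins further upstream, at chr5:149636376. The marked unit, at chr5:149636362-149636369, and the end of the printed stretch therefore lie inside the counted gene. A run of 3 units, TTCTGGAAAGTTC, lay further downstream at chr5:149636288-149636300, where the pairs TTCTGGAA and GAAAGTTC overlap. Bag3 held GAAGTTTC at chr7:128523625-128523632, beginning at base 43 of the transcribed strand. Thus 4 of 7 members with a window held a paired unit, against 17.0% of the 27025 genes in the promoter table, and the triple unit (GAANNTTCNNGAA or its reverse complement) was found in Hsph1 alone of the members, against 0.662% of all genes. The Hspa1 copies are nearly the same sequence there, so their 2 matches are not independent. Hspa4, Hspa4l and Hspa14 held none of these motifs in their windows. A match is a string of bases and was not measured as a bound site.

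Each library held 24464324 to 35184063 counts, of which 37.4% to 54.5% fell on mitochondrial genes. The lncRNA genes of the deleted region could not serve as a check of the genotype labels. Of the 3 genes, 0 were counted, and 0 counted rows overlap them. By qPCR of heart and aorta, the paper reported strongly lower Gm41148 in KO. For Gm49302 and Gm35360 it reported no significant difference. Levels are given as CPM, the usual scaling of counts to a fixed library total, with totals adjusted by the trimmed mean of M values (TMM). Summed CPM of 15 EC marker genes ran from 2762 to 4801 in WT and from 3051 to 4849 in KO. Markers of other lung cells were present as well: 8 alveolar type II genes summed to 5579, 52499 and 16147 in WT 1, 2 and 3 and to 40875 to 50306 in KO, so that WT 2 stood apart from the other WT libraries. The 4 airway epithelial markers had the same order in WT, at 15362, 40423 and 19928, and summed to 33576 to 56788 in KO. In every library, the alveolar type II sum and the airway sum were each above the EC marker sum. Sums of a few genes do not measure the shares of cells. The 6 B cell markers summed to 9.40 to 22.2 in WT and 74.7 to 80.2 in KO, with all 6 higher in every KO library. The 6 T cell markers summed to 2.03 to 4.03 in WT and 6.22 to 8.77 in KO. The 4 platelet markers summed to 26.2 to 40.2 in WT and 37.4 to 72.3 in KO, with 3 of 4 higher in every KO library. The sums of macrophage, neutrophil, mesenchymal and erythroid markers overlapped between the groups. Those of macrophage markers, for example, were 114 to 315 in WT and 155 to 392 in KO. As background, 8.59% of all genes tested had every KO library above every WT library. The part of these shifts in the values below was not tested, and in such bulk samples fewer cells of a type and less RNA per cell cannot be told apart.

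The sequence of the transcripts limits what the counts of 3 members can say. Reads of 50 bases were counted only where they aligned to 1 place, and 66.3% of the 50-base stretches of Hspa1a and 62.3% of those of Hspa1b also occur in transcripts of other genes, mostly in the other copy. For Hspa8 the share was 74.8%, spread over 13 other genes, with Gm15459 holding 70.0%. The share was 4.10% for Hspa9, 0.626% for Hspa4l and 0 for the other 5 members, where for Hspa14 the overlapping gene Gm45902 was left out of the comparison. The counts of Hspa1a and Hspa1b therefore come from a minority of their sequence, and their levels are understated relative to the other members. The split between these copies is uncertain. For Hspa8 the search covered 1 transcript of 2394 bases, whereas its reads were counted over 4156 bases of exon. The share over its whole counted sequence was not measured, so its level may be understated as well. The 12 counted rows of the Hspa8 look-alikes together held 18 to 114 reads per library, 0.627% to 1.58% of the Hspa8 count.

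**Figure D1:**
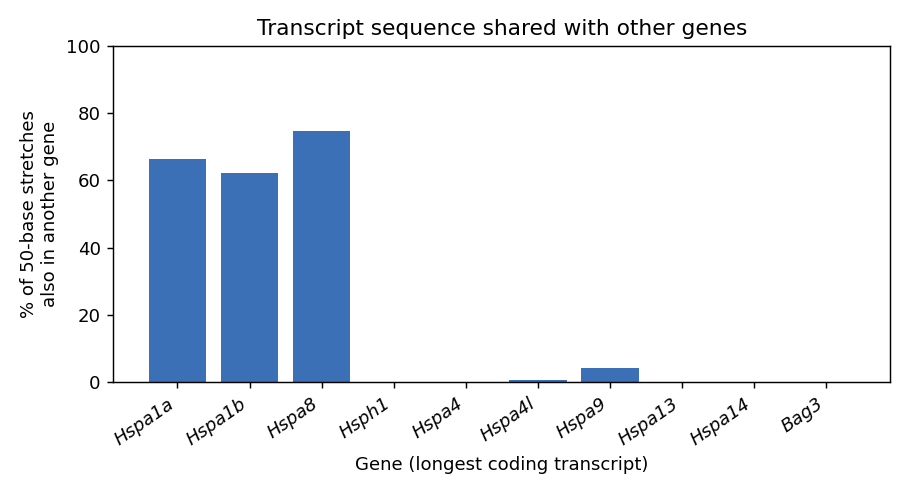
Share of each member's 50-base stretches, in percent of those in its longest coding transcript, that also occur in a transcript of another gene. Bars of Hspa8 (74.8%), Hspa1a (66.3%) and Hspa1b (62.3%) stand above those of the other members, which reach 4.10% at most.

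The stress-inducible pair had the lowest KO levels relative to WT of the set. Hspa1b was counted at 14.2, 22.2 and 19.9 CPM in WT 1, 2 and 3 and at 1.29, 2.61 and 1.52 CPM in KO 1, 2 and 3. Every KO library lay below every WT library, and the lowest WT value was 5.44 times the highest KO value. The means were 18.8 ± 4.13 in WT and 1.81 ± 0.707 in KO (SD, n = 3 each), a log2 fold change of -3.37 (SE 0.31). Among the 14625 genes, Hspa1b had the lowest log2 fold change of all, which is part of why it was chosen. Hspa1a, whose gene lies 9951 bp from Hspa1b on the same strand of chromosome 17, was counted at 7.29, 13.7 and 13.3 CPM in WT, against 1.16, 1.84 and 2.45 CPM in KO. Again the groups did not overlap, with WT 1 the lowest of the WT libraries for both copies. Its means were 11.4 ± 3.57 and 1.82 ± 0.645 (SD, n = 3 each), with a log2 fold change of -2.64 (SE 0.35), the fifth lowest of the genes tested. The KO values rest on 27 to 71 reads per library for Hspa1a and 30 to 71 for Hspa1b, against 284 to 465 and 424 to 757 in WT.

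Because reads that align to both copies were not counted, the split between the copies is uncertain, and their counts were also summed. The sum holds the same reads and recovers none of those left out, so it understates the pair as well. The sum was 21.5, 35.9 and 33.2 CPM in WT and 2.45, 4.45 and 3.97 CPM in KO. Even the lowest WT library exceeded all KO libraries. The means were 30.2 ± 7.64 and 3.62 ± 1.04 (SD, n = 3 each), 8.28-fold lower in KO, or -3.05 on the log2 scale (SE 0.29). Leaving out 1 library at a time kept the sum between -3.25 and -2.86. It was -2.94 without WT 2, the WT library whose alveolar type II markers were nearest to those of KO. Hspa1b made up 66.1%, 61.9% and 59.9% of the pair's reads in WT and 52.6%, 58.7% and 38.3% in KO. The share in KO 3 had a 95% Wilson interval of 29.9% to 47.4%, which covers counting error only, and it was the lowest of the 6, while the interval of KO 1, 39.9% to 65.0%, reached into the WT values. Hspa1l, a testis-enriched relative, stayed below the filter, with means of 0.673 ± 0.340 CPM for WT and 0.112 ± 0.165 CPM for KO (SD, n = 3 each), with 12 to 26 reads per library in WT and 0 to 7 in KO.

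Hspa8, the constitutive HSC70 on chromosome 9, had the highest level per kb of exon of the members in each library. It was counted at 252, 214 and 291 CPM in WT and 123, 92.3 and 85.1 CPM in KO. The KO libraries were all below the WT libraries, with KO 1 the highest of them. The means were 252 ± 38.9 and 100.1 ± 20.0 (SD, n = 3 each), a log2 fold change of -1.33 (SE 0.20), rank 76 from the lowest. Without WT 2 the log2 fold change was -1.48.

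**Figure D2:**
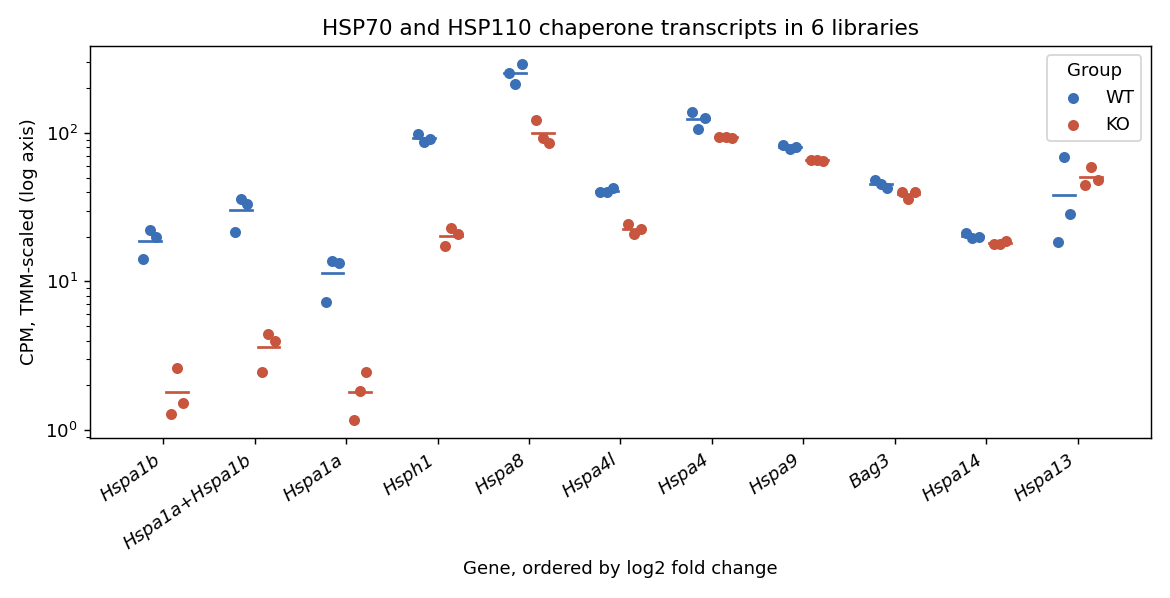
CPM of each member and of the Hspa1a+Hspa1b sum on a log axis, with 1 point per library (WT blue, KO red) and a line at each group mean, ordered by log2 fold change. The groups are apart for all members except Hspa13, where WT 2 at 68.3 CPM lies above all KO libraries.

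The HSP110 genes, whose proteins exchange the nucleotide of HSP70 and hold unfolded clients, stood below WT by unequal amounts. Hsph1, the stress-inducible HSP110 on chromosome 5, was counted at 97.9, 86.2 and 90.9 CPM in WT and 17.3, 22.8 and 21.0 CPM in KO. The groups were far apart and each was narrow, with the lowest WT library at 3.78 times the highest KO library. The means were 91.6 ± 5.88 and 20.3 ± 2.80 (SD, n = 3 each), and the log2 fold change was -2.17 (SE 0.15). None of the 50-base stretches of its longest coding transcript occurs in another gene, so the limit on Hspa1a, Hspa1b and Hspa8 was not found. Hspa4l, an HSP110 gene on chromosome 3, was counted at 40.0, 40.0 and 42.2 CPM in WT and 24.2, 21.0 and 22.5 CPM in KO. Its means of 40.7 ± 1.29 and 22.6 ± 1.62 (SD, n = 3 each) gave a log2 fold change of -0.85 (SE 0.12), and both groups were tight. Hspa4, the constitutive HSP110 on chromosome 11, was counted at 138, 106 and 125 CPM in WT and 93.7, 94.2 and 91.7 CPM in KO. The gap between WT 2 and the nearest KO library was narrow here. Its means were 123 ± 16.1 and 93.2 ± 1.29 (SD, n = 3 each), with a log2 fold change of -0.40 (SE 0.15). The ratio of Hsph1 to Hspa4 per kb of exon, which does not depend on how libraries are scaled, was 0.538, 0.617 and 0.552 in WT and 0.140, 0.184 and 0.174 in KO. Relative to Hspa4, the inducible HSP110 thus stood lower in each KO library than in any WT library.

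Bag3, a nucleotide exchange factor and adaptor that links HSP70 to small heat shock proteins and autophagy, had a small difference. It was counted at 48.3, 45.6 and 42.3 CPM in WT and 39.7, 35.7 and 40.0 CPM in KO, with means of 45.4 ± 2.99 and 38.5 ± 2.42 (SD, n = 3 each). The log2 fold change was -0.24 (SE 0.12), with KO 2 the lowest library and KO 3 the KO library nearest to WT.

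Another 3 members work in mitochondria, at the ribosome or in microsomes. Hspa9, the mitochondrial HSP70 (mortalin), was counted at 82.2, 77.6 and 80.6 CPM in WT and 65.5, 65.4 and 64.4 CPM in KO. All KO libraries lay below WT, with a log2 fold change of -0.30 (SE 0.11). Hspa14, which works with a J-domain protein at the ribosome, was counted at 21.1, 19.5 and 20.0 CPM in WT and 17.8, 18.0 and 18.8 CPM in KO. The groups were close, at a log2 fold change of -0.15 (SE 0.12). Its row has the bounds and strand of Hspa14 and holds all 25 of its 25 exons, but the gene ID is named Gm45902 in GENCODE, and reads of the 2 cannot be told apart. Hspa13, a microsomal HSP70 relative, was the exception in direction and in spread. It was counted at 18.5, 68.3 and 28.5 CPM in WT and 44.9, 59.1 and 48.2 CPM in KO, so the groups overlapped through WT 2. The means of 38.4 ± 26.4 and 50.7 ± 7.44 (SD, n = 3 each) gave a log2 fold change of 0.40 (SE 0.43). Without WT 2 it was 1.08, and over the other libraries left out 1 at a time it went down to 0.06. The WT libraries stood in the same order for Hspa13 as for the alveolar type II markers, with WT 2 highest and WT 1 lowest, and the part of those cells in the Hspa13 values was not tested. Hspa5, the HSP70 of the endoplasmic reticulum (BiP), had the same order in WT, at 362, 1202 and 631 CPM, and overlapped with KO at 595, 809 and 717 CPM. Hyou1, the HSP110 relative of that compartment, also overlapped, at 88.2, 245 and 135 CPM in WT and 131, 171 and 157 CPM in KO.

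**Figure D3:**
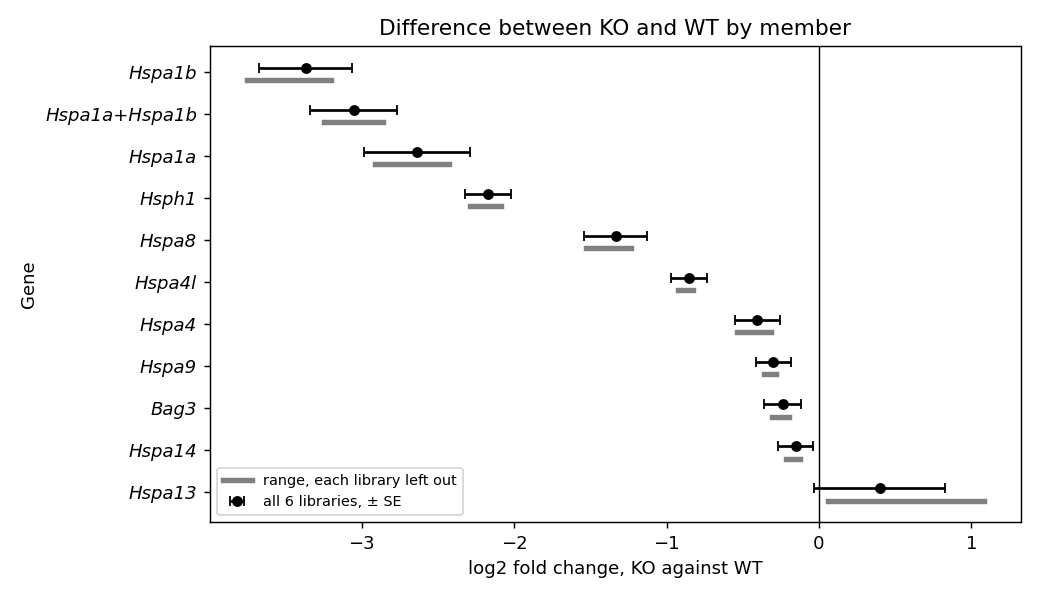
Log2 fold change of each member and of the Hspa1a+Hspa1b sum, KO against WT. Points with bars give the fit to all 6 libraries ± SE, and grey lines the range when each library is left out in turn. Values run from -3.37 for Hspa1b to 0.40 for Hspa13, whose grey line is the longest and reaches 1.08.

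Across the set, 9 of 10 members had every KO library below every WT library, a pattern found in 9.2% of all genes tested. By edgeR's quasi-likelihood fit (threshold 0.05 after Benjamini-Hochberg adjustment over all genes), 2 members were called lower, Hspa1b and Hsph1, and none higher. Neither was called without KO 1, KO 2 or KO 3. DESeq2 called 5 members lower, among 99 genes lower in all. Without WT 2 Hspa13 was called higher beside 5 called lower, among 660 genes higher and 131 lower in all. In the main fit, 0.0752% of all genes were called lower, 0.0342% higher and 0.109% in either direction. Before adjustment, 7 members were under the threshold, all lower, against 4.68% of all genes lower and 5.62% higher. These shares stand as background to a set chosen on this contrast, and nothing is read from them. The median log2 fold change was -0.63 over the members and 0.03 over all genes. No member changed the sign of its log2 fold change under the 18 other ways of processing that were tried. The summed CPM of the 10 genes was 720, 693 and 754 in WT and 428, 413 and 396 in KO.

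The order of the members per length of exon also shifted. In WT, Hspa8 led at 60.7 ± 9.36 CPM per kb (SD, n = 3), followed by Hspa4 at 22.3 ± 2.91 and Hspa9 at 20.4 ± 0.592, whose library values overlapped. Bag3 came next at 17.7 ± 1.17, then Hsph1 at 12.6 ± 0.809. Hspa1b at 6.69 ± 1.47, Hspa13 at 6.52 ± 4.47, Hspa1a at 3.85 ± 1.20 and Hspa4l at 3.46 ± 0.110 overlapped with their neighbours, and Hspa14 had the lowest mean, although Hspa1a was lower still in WT 1. In KO, Hspa8 still led at 24.1 ± 4.81 CPM per kb (SD, n = 3), followed by Hspa4 at 16.9 ± 0.234 and Hspa9 at 16.6 ± 0.156, which again overlapped, and by Bag3 at 15.0 ± 0.944. Hspa13 at 8.60 ± 1.26 now stood above Hsph1 at 2.80 ± 0.385. Hspa1b at 0.644 ± 0.252 and Hspa1a at 0.612 ± 0.217 were the lowest members in KO and overlapped, below Hspa14 at 2.25 ± 0.0675 and Hspa4l at 1.92 ± 0.137. The summed level of the 10 genes per kb was 157 ± 7.48 in WT and 89.3 ± 4.07 in KO (SD, n = 3 each). Hspa8 made up 38.6% ± 4.16 of it in WT and 26.8% ± 4.09 in KO, and the Hspa1 pair 6.74% ± 1.78 and 1.42% ± 0.449. These levels and shares understate the Hspa1 pair, for which most sequence yields no countable read, and may understate Hspa8. Per 1000 unshared 50-base stretches of 1 transcript, Hspa8 had 428 CPM in WT and 170 in KO, against 24.4 and 5.42 for Hsph1. The reads behind these values were counted over longer exon sequence, 4156 against 2394 bases for Hspa8 and 7266 against 3802 for Hsph1. The 2 genes are therefore not compared on like terms by them.

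**Figure D4:**
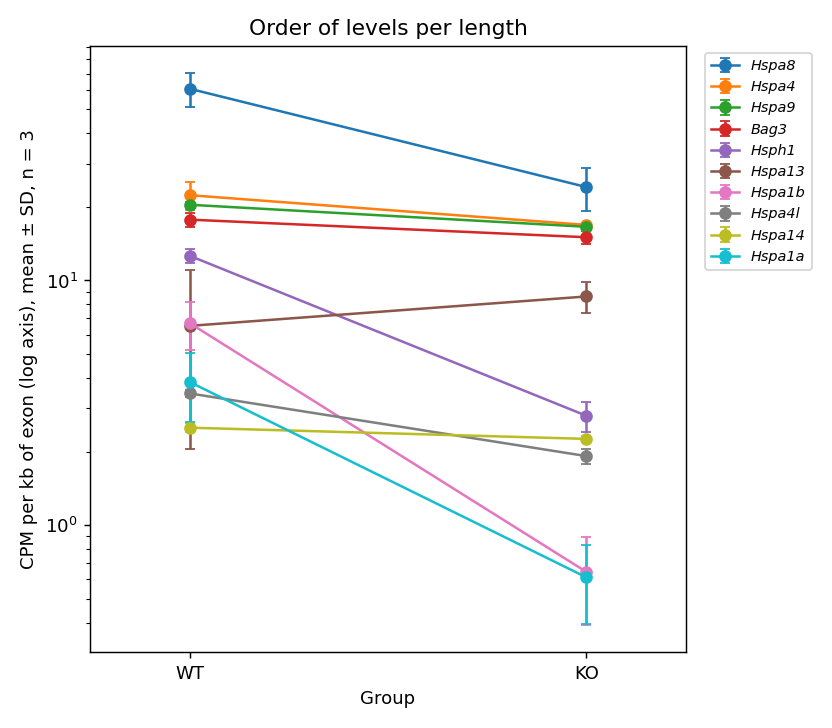
Mean CPM per kb of exon ± SD (n = 3) of each member in WT and KO on a log axis, with a line joining the groups of 1 gene. Lines of Hspa1b, Hspa1a and Hsph1 slope down most and cross those of Hspa14, Hspa4l and Hspa13, whereas Hspa8 stays highest at 60.7 and 24.1 CPM per kb.

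The other genes of the HSP70 cycle and of the heat shock response were taken from lists. These held 58 genes besides the members, of which 56 were tested. They, and the early genes below, were chosen with earlier results of these data known. Their counts are therefore a description beside the shares of all genes. With edgeR's quasi-likelihood test and adjustment over all 14625 genes, 3 were called lower in KO and 0 higher. Of all genes tested, 0.0752% were called lower and 0.0342% higher. Stip1 (HOP), which carries clients from HSP70 to HSP90, was counted at 86.2, 67.7 and 83.4 CPM in WT and 33.0, 29.1 and 32.1 CPM in KO. It fell by 1.33 on the log2 scale (SE 0.14, edgeR adjusted p = 0.0276). Hspb1 (HSP27), a small heat shock protein that keeps unfolded proteins soluble, was counted at 27.7, 27.7 and 27.3 CPM in WT and 11.4, 7.87 and 9.49 CPM in KO. It fell by 1.53 (SE 0.16, edgeR adjusted p = 0.0276). Chordc1 (CHP1), an HSP90 co-chaperone, was counted at 29.3, 29.5 and 29.4 CPM in WT and 15.7, 15.2 and 14.5 CPM in KO, and fell by 0.96 (SE 0.11, edgeR adjusted p = 0.0404). The calls of all 3 were lost without WT 3 and without any 1 of the KO libraries. Of the 56 genes, 47 had a log2 fold change below 0, against 45.9% of all genes, and the median was -0.21. Every KO library lay below every WT library for 23 genes and above for 2, where 9.2% and 8.59% of all genes did so.

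Among 12 J-domain partners, which start ATP hydrolysis on HSP70, 0 passed edgeR's test, 5 had an unadjusted p under 0.05, and 7 had all KO libraries below WT. Across all genes tested, 4.68% were lower and 5.62% higher at that unadjusted p. All KO libraries lay below WT for 9.2% of them and above for 8.59%. The list's median was -0.29 on the log2 scale. DESeq2 called 3 of its genes lower, limma-voom 1 and the likelihood ratio test of edgeR 3. Over all genes, these tools called 99, 17 and 87 lower, in the same order. Dnaja1 was the lowest at -1.32 (SE 0.17), from 53.4 ± 8.01 CPM in WT to 21.3 ± 3.58 CPM in KO (SD, n = 3 each), and Dnajc7 the highest at -0.07. Of 7 nucleotide exchange and release partners, 0 passed with edgeR, DESeq2 or limma-voom, 2 had an unadjusted p under 0.05 in edgeR, both higher, and 0 had all KO libraries below WT. Here Bag4 at 0.58 and Bag5 at 0.24 had all KO libraries above WT, the lowest was Bag2 at -0.62 and the highest was Sil1, the exchange factor of BiP, at 0.73, with overlapping groups. In the list of adaptors and the ubiquitin ligase, 6 genes together, 1 was called lower by edgeR (Stip1) and 3 had all KO libraries below WT. The shares over all genes tested were 0.0752% and 9.2%. Stub1 (CHIP), the ligase, was the highest at 0.26.

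Of 10 partners of the mitochondrial HSP70, 0 passed with edgeR's quasi-likelihood test, DESeq2 or limma-voom. The likelihood ratio test of edgeR called 1 lower, among 87 genes lower in all. By the quasi-likelihood test 3 had an unadjusted p under 0.05, all lower, and 4 had all KO libraries below WT. The shares over all genes tested were 4.68% and 9.2%. Hspd1 (HSP60), the mitochondrial chaperonin, was the lowest at -0.78 (SE 0.19) and Hscb, a J-domain protein of iron-sulfur cluster assembly, the highest at 0.29 (SE 0.19). Of the 5 tested relatives in the other HSP70 and HSP110 family list, 0 passed with the same tools and 1 had an unadjusted p under 0.05 in edgeR, with values from -0.55 (SE 0.16) for Hspa12b, an endothelial HSP70 relative, to -0.03 for Hyou1. Hspa12b was counted at 126, 91.4 and 97.6 CPM in WT and 71.9, 68.6 and 74.2 CPM in KO, without overlap.

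Among 18 classical HSF1 targets, which include Bag3 and partners named above, 3 passed, 14 had all KO libraries below WT and 0 above, and the median was -0.81. For comparison, 0.0752% of all genes tested were called lower, and 9.2% had all KO libraries below WT. The values ran from -1.53 for Hspb1 to -0.14 for Ubb, a ubiquitin gene. DESeq2 called 11 of them lower, among 99 genes it called lower in all. The groups overlapped for the HSF1 arm itself, of which 0 genes passed with edgeR, DESeq2 or limma-voom and 0 had an unadjusted p under 0.05 in edgeR. Hsf1 was counted at 17.1, 13.7 and 15.9 CPM in WT and 13.5, 14.5 and 14.6 CPM in KO, a log2 fold change of -0.13 (SE 0.14). The 4 tested genes of this arm all overlapped between the groups, from -0.13 for Hsf1 to 0.42 (SE 0.36) for Hsf4. Transcript levels of Hsf1 do not measure the activity of its protein.

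Early response genes, which handling and dissociation of tissue are known to raise, also stood mostly below WT. Of 16 such genes, 0 passed edgeR's test, 10 had an unadjusted p under 0.05, all lower, and 10 had all KO libraries below WT. Over all genes tested, the shares were 4.68% lower at that unadjusted p and 9.2% with all KO libraries below WT. DESeq2 and edgeR's likelihood ratio test each called 3 of them lower and limma-voom 0. Over all genes, DESeq2 called 99 lower and the likelihood ratio test 87. On the log2 scale the median was -0.47 and the range ran from -1.90 for Atf3 to 0.20 for Egr1. Their summed level was 865, 851 and 822 CPM in WT and 543, 603 and 689 CPM in KO. Their part in the chaperone values was not tested.

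**Figure D5:**
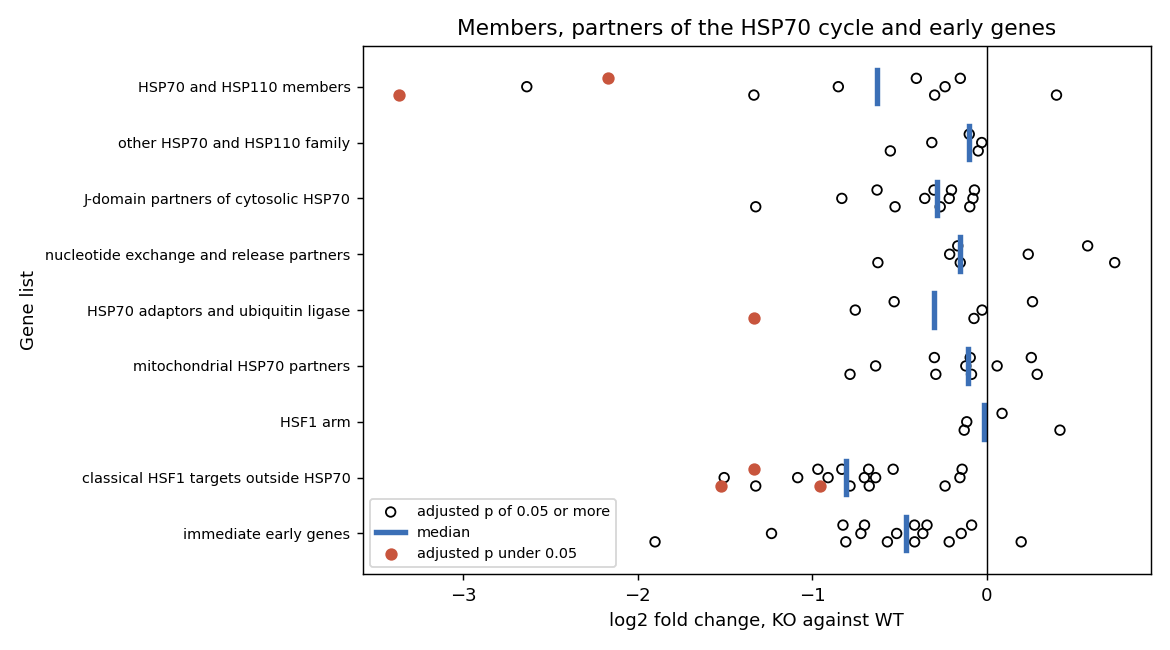
Log2 fold change, KO against WT, of every tested gene (points) in the member list, the partner lists and the early genes, with a blue line at each list's median and red points for an adjusted p under 0.05. Some genes stand in more than 1 list. Medians run from -0.81 for the classical HSF1 targets to -0.01 for the HSF1 arm.

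Over the 6 libraries, the genes whose log2 CPM most resembled the Hspa1a and Hspa1b sum were Med11 (Pearson r = 0.995), Rexo2 (0.991), Ahsa2, Ddit4, Jpt2, Errfi1, Tsc22d3, Zscan20, Nt5dc3 and Hsph1 (0.979). These r values are a description over 3 WT and 3 KO points of the same libraries, and a gene that merely differs between the groups also scores high. Tsc22d3 (GILZ), a glucocorticoid-induced gene, went from 164 CPM in WT to 55.6 CPM in KO, and Ahsa2, a relative of the HSP90 activator Ahsa1, from 27.3 to 11.7 CPM. Among the members, r with the sum was 0.946 for Hspa4l, 0.938 for Hspa9, 0.892 for Hspa8, 0.820 for Hspa14, 0.787 for Hspa4, 0.741 for Bag3 and -0.33 for Hspa13.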

How the data were processed

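RNA-seq of lung ECs gave 6 libraries, 3 WT and 3 KO. The deposited files hold raw read counts per gene: per the labels and methods, the authors converted base calls with bcl2fastq 2.18, aligned the reads with STAR 2.5.4b to GRCm38 and counted uniquely aligned, reverse-stranded reads over Ensembl exons with featureCounts of Subread 2.0.0. Depth was 24464324 to 35184063 counts per library, and 3 counts correspond to 0.0853 to 0.123 CPM. Symbols came from GENCODE and were found for 47224 of 47729 genes.

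KO was compared with WT by edgeR 4.0.16 (R 4.3.3) with the quasi-likelihood test, TMM scaling, filterByExpr at its defaults and genotype as the only term. P-values were adjusted by Benjamini-Hochberg over 14625 genes at a threshold of 0.05. Each SE is the absolute log2 fold change divided by the square root of that test's F statistic, which uses dispersions moderated over all genes. The summed Hspa1 row replaced the 2 copies in a separate fit. The common biological coefficient of variation was 0.256. An exact permutation test of 3 against 3 cannot give a p below 0.1. The code was checked on simulated counts. Alternatives were DESeq2 1.42.0, limma 3.58.1 (voom), other edgeR settings, scalings and filters, a replicate block and leaving out each library.

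Same-numbered WT and KO libraries did not deviate together, so the numbers were not taken as pairs. The members and gene lists were chosen with earlier results of these data known. All members and their sum were named, with each partner gene that passed the test, the highest and lowest gene of each partner list and the 10 genes most like the Hspa1 sum. Others (Hspa5, Hspa1l, Bag4, Bag5, Ahsa2 and Tsc22d3 with values) were named after their values were seen. CPM per kb used the exon length in the count tables. The 50-base stretches of each member's longest coding transcript were compared with all GENCODE transcripts.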

Additional observations from a re-analysis of the deposited data

How the results depend on the processing

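The log2 fold change of the summed Hspa1 counts ran from -3.25 to -2.86 over 18 alternatives and was called in 15, the exceptions being the fits without KO 1, KO 2 or KO 3. Counts of calls depended on the processing more than the fold changes did. The main fit called 16 genes, 2 members and 3 partners. In the same order, the calls were 187, 5 and 13 with DESeq2, 26, 2 and 6 with limma-voom, 211, 5 and 14 with edgeR's likelihood ratio test, 26, 4 and 6 with RLE scaling, 31, 4 and 5 with upper-quartile scaling, 123, 4 and 5 with total counts, 114, 5 and 8 with total counts without mitochondrial genes, and 152, 5 and 8 with no filter. Robust dispersions and the newer glmQLFit setting gave 21 and 22 genes, and 5 partners each. Leaving out 1 library at a time gave 0 to 791 genes, 0 to 6 members and 0 to 15 partners. The upper ends came without WT 2, where Hspa13 was called higher, and without any 1 of the KO libraries nothing was called, with 986 to 1112 genes at an unadjusted p under 0.05 in edgeR. The cause was not tested. Scaling by total counts lowered the median of all genes from 0.03 to -0.13, and to -0.18 without mitochondrial genes, and moved most members lower by a like amount. The calls split into 5 higher and 11 lower in the main fit, 61 and 62 with total counts, 44 and 70 with total counts without mitochondrial genes, 124 and 87 with the likelihood ratio test, 87 and 65 with no filter, 88 and 99 with DESeq2, and 660 and 131 without WT 2.

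Same-numbered libraries had deviations correlated at -0.08, 0.22 and 0.01, so the labels' numbers gave no pairing. With the replicate block, 0 genes, 0 members and 0 partners were called by edgeR, with 1776 genes at an unadjusted p under 0.05, while the log2 fold change of the Hspa1 sum was -3.07. Counts of 27 to 71 reads per copy limit the precision of Hspa1a and Hspa1b in KO.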
